A study of Mus musculus with 4 samples.

Results

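Aquaporins are membrane channels for water, and some of them, the aquaglyceroporins, also pass glycerol. This account covers 9 genes: the 7 aquaporin genes Aqp1, Aqp2, Aqp5, Aqp7, Aqp8, Aqp9 and Aqp11, and Gk2 and Gykl1, the glycerol kinase genes of the testis. They were taken by symbol from the 44509 gene symbols of the table of expression values, and each stood on 1 row. Glycerol kinase phosphorylates glycerol to glycerol 3-phosphate, so a glycerol channel and an active kinase together admit glycerol to energy metabolism and lipid synthesis. RNA levels do not show whether the products of Gk2 and Gykl1 have that activity. In the testis, aquaporins are known for the removal of water and cytoplasm from maturing spermatids and for fluid movement in Sertoli cells, Leydig cells and the excurrent ducts. Aqp7 and Aqp11 are known from spermatids and are called germ-cell channels here. The other 5 are treated as somatic channels, although Aqp8 and Aqp9 have been described in more than 1 testicular cell type.

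RNA from testis tissue was sequenced in 4 libraries. In 2 of them the mice carried oligozoospermia, a low sperm number, brought on by busulfan, an alkylating agent toxic to dividing germ cells. In the other 2 the busulfan model had been treated with Cus-1, a resin glycoside from a cuscutae extract. All 4 therefore share the busulfan injury, and no untreated testis was compared. The labels give no strain, age, dose or time, and leave unsaid if each sample was its own animal. P-values thus measure no more than the spread between these libraries, possibly a technical one. The source labels alone set the groups, since the titles begin with BPA for the busulfan samples and with CUS2 for the treated ones. The series title names aquaporins as the start of the path by which Cus-1 would act, and the comparison below is of aquaporin and kinase mRNA between the groups.

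Depth was estimated at 11.3 to 12.7 M (1e+06) fragments a library, from the peak of low values of FPKM times length, taken as 1 fragment. Summed values ran from 726041 to 742689 FPKM, a unit that divides fragments by gene length and by the mapped total. Markers of testis were present throughout: the 16 Sertoli genes summed to 4301 FPKM or more and the 10 Leydig genes to 14339 or more in every library. The library Cus-1 1 stood apart in elongating spermatid genes, whose 16 members summed to 14046 FPKM there against 5370 in Cus-1 2 and 3799 and 4075 in busulfan 1 and 2. Limma was fitted on log2(FPKM + 1) over the 19837 genes that reached 1 FPKM in 2 libraries or more, and 0 genes passed an adjusted p of 0.05 (smallest 0.0676), which is 0% called. At an unadjusted p under 0.05 there were 5551 genes, or 28.0%. A difference is therefore given below with its interval and not as an established change.

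In testes given Cus-1 the spermatid channels Aqp7 and Aqp11, the glycerol channel Aqp9 and both kinases were at higher levels, and Aqp5, Aqp8 and Aqp1 at lower levels, than with busulfan alone. Centring each library on round spermatid genes turned the log2 fold changes of Aqp11, Gk2 and Gykl1 to between -0.10 and -0.04. It turned that of Aqp9 to -0.45 with an SE of 0.62. Centring on Sertoli genes turned Aqp1 and Aqp2 higher. As deposited, in those 8 genes both Cus-1 libraries lay on the same side of both busulfan libraries, and in Aqp2 the groups overlapped. Groups stood apart in 68.4% of all tested genes, so 8 of 9 is read against a large background. At an unadjusted limma p under 0.05, 5 of the 9 were higher (18.0% of all tested genes) and 2 were lower (9.96%), 7 in either direction against 28.0%. The 5 higher genes became 1 without busulfan 1 and 2 without Cus-1 1, so that count rests on these libraries, while the count of lower genes was 2 or 3 with any library left out. All 9 passed the filter on low values, Aqp1 only through the busulfan libraries, where it was higher.

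**Figure D1:**
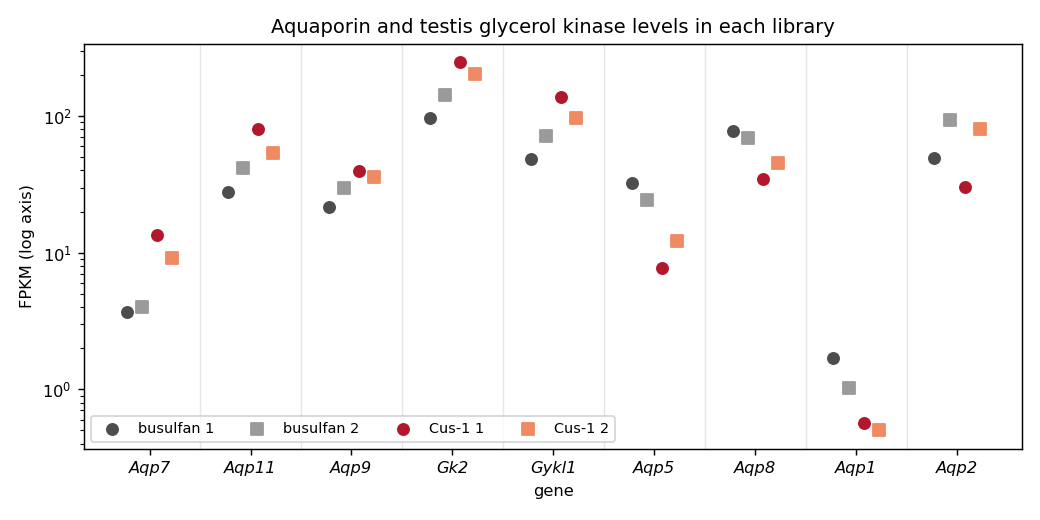
Each point is the FPKM (log axis) of a gene in a library, with busulfan libraries in grey and Cus-1 libraries in red and orange. The 5 genes on the left have both Cus-1 points above both busulfan points, Aqp5, Aqp8 and Aqp1 have them below, and the points of Aqp2 overlap.

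Aqp7, an aquaglyceroporin of spermatids and of fat cells, was at 3.67 and 3.99 FPKM under busulfan and 13.5 and 9.17 after Cus-1. The busulfan libraries were close to each other and both Cus-1 libraries were above them, Cus-1 1 more so. The group means were 3.83 ± 0.226 and 11.3 ± 3.05 FPKM (SD, n = 2), a ratio of 2.96. The log2 fold change was 1.33 (95% interval 0.69 to 1.97), larger in size than that of 97.3% of the tested genes, with a limma adjusted p of 0.152. Fat cells also express Aqp7, and the 10 adipocyte markers summed to 20 and 30.1 FPKM with busulfan and to 8.30 and 12.9 with Cus-1. Of the 4 that were tested, Fabp4 (7.68 and 7.29 against 1.44 and 2.47 FPKM) and Cfd were lower without overlap, while Plin1 (4.17 and 11.6 against 3.42 and 6.80) and Plin4 overlapped. Fabp4, Plin1 and Cfd were above Aqp7 in both busulfan libraries, and the other 6, Adipoq and Cidec among them, were at 1.26 FPKM or less. Their part in the level of Aqp7 was not tested. The gene lies on chromosome 4 (41033074 to 41048139, minus strand) and its aquaporin neighbour there, Aqp3, 44.6 kb away, did not reach 1 FPKM in any library.

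Aqp11, an unusual aquaporin of intracellular membranes on chromosome 7 (97724006 to 97738289, minus strand), was at 27.9 and 41.6 FPKM under busulfan and 80.3 and 53.7 after Cus-1. The groups did not overlap, but busulfan 2 and Cus-1 2 lay closer to each other than the libraries of either group did. Its log2 fold change was 0.92 (0.18 to 1.67, adjusted p = 0.154), and it was 0.64 without busulfan 1 and 0.64 without Cus-1 1. Of the summed aquaporin FPKM, Aqp11 held 13.0% and 15.8% with busulfan and 38.6% and 22.5% with Cus-1.

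Aqp9, an aquaglyceroporin that also passes other small solutes, was at 21.7 and 29.8 FPKM under busulfan and 39.9 and 35.9 after Cus-1. It was grouped with the somatic channels by the rule for this comparison, and its direction was that of the germ-cell channels. The log2 fold change was 0.56 (0.03 to 1.08, adjusted p = 0.170), and it was 0.34 without busulfan 1. The gene lies on chromosome 9 (71110659 to 71168682, minus strand), where the antisense gene Gm32511 overlaps it at 1.15 to 3.84 FPKM. Since the strand setting is not given in the sources used here, reads of that pair cannot be told apart.

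Gk2 was the most abundant of the 9 genes in both groups, at 97.4 and 143 FPKM under busulfan and 247 and 202 after Cus-1. Both Cus-1 libraries exceeded both busulfan libraries, with a ratio of means of 1.86. Its log2 fold change was 0.91 (0.29 to 1.53, adjusted p = 0.152). It is encoded on chromosome 5 (97455142 to 97457021, minus strand) by a gene with 1 annotated transcript, and 4930467D21Rik, at 1.13 to 3.85 FPKM, overlaps it on the other strand. Gykl1, the other testis kinase gene, was at 48.2 and 70.9 FPKM under busulfan and 138 and 97.3 after Cus-1, again without overlap. Its log2 fold change was 0.97 (0.28 to 1.67, adjusted p = 0.152).

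Aqp5, a water channel of secretory epithelia, was at 32.4 and 24.1 FPKM under busulfan and 7.78 and 12.1 after Cus-1. Both Cus-1 libraries were below both busulfan libraries, and the mean was lower by a ratio of 2.84. The log2 fold change was -1.43 (-2.13 to -0.73, adjusted p = 0.152), the largest in size of the 9. Aqp8, which passes water and small solutes such as ammonia, was at 78.0 and 69.2 FPKM under busulfan and 34.7 and 45.3 after Cus-1. Its log2 fold change was -0.87 (-1.36 to -0.39, adjusted p = 0.152). With busulfan Aqp8 was the most abundant aquaporin by mean, and with Cus-1 Aqp11 was. In neither group were these top places clear, since the ranges of Aqp8 and Aqp2 overlapped with busulfan and those of Aqp11 and Aqp2 with Cus-1.

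Aqp1, the water channel of red blood cells, capillaries and efferent ducts, was low, at 1.70 and 1.03 FPKM under busulfan and 0.57 and 0.50 after Cus-1. At the estimated depth and a transcript of 2627 bases these values stand for about 51, 34, 19 and 15 fragments, so counting error is large. The log2 fold change was -0.61 (-1.30 to 0.09, adjusted p = 0.204), a scale that understates changes at such levels. It was -0.40 without busulfan 1 and -1.17 with a pseudocount of 0.1. The 8 erythrocyte genes summed to 582 and 309 FPKM with busulfan and to 293 and 262 with Cus-1, most of it Hba-a2 and Hbb-bs, and 3 of the 5 tested overlapped between the groups. The 9 endothelial genes summed to 80.4 and 60.4 against 41.7 and 50.8 FPKM, and 7 of them were lower without overlap. Of all tested genes, 68.4% stood apart between the groups in either direction, and 31.7% were lower without overlap. The part of erythrocytes and endothelial cells in the level of Aqp1 was not tested.

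Aqp2, the vasopressin-regulated channel of the kidney collecting duct, was at 49.2 and 93.5 FPKM under busulfan and 30.2 and 80.8 after Cus-1. It was high in busulfan 2 and Cus-1 2 and low in the other two, so its spread within a group exceeded the difference between groups (log2 fold change -0.45, interval -1.85 to 0.95, adjusted p = 0.582). Its sign turned positive without Cus-1 1, at 0.25, and it was 0.01 without busulfan 2. Duct markers did not share this order: the 13 measured genes of epididymis and efferent duct summed to 55.9, 70.0, 99.6 and 58.0 FPKM over the 4 libraries in the same sequence, of which Cst8 alone made 37.2, 49.8, 85.5 and 43.7. The duct genes Adam7, Lrp2 and Slc9a3 were at 0.33 FPKM or less, while Rnase10 was at 1.68 to 3.03, Cst11 at 0.39 to 4.44 and Esr1 at 6.96 to 14.1. The 7 rete testis genes summed to 33.6, 29.0, 30.3 and 29.6 FPKM, most of it Epcam. The part of duct cells in the level of Aqp2 was not tested. Aqp2 and Aqp5 are neighbours on chromosome 15, 6.2 kb apart on the same strand (99579055 to 99584547 and 99590782 to 99594829), yet Aqp5 was higher in busulfan 1 than in busulfan 2 and Aqp2 the reverse.

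**Figure D2:**
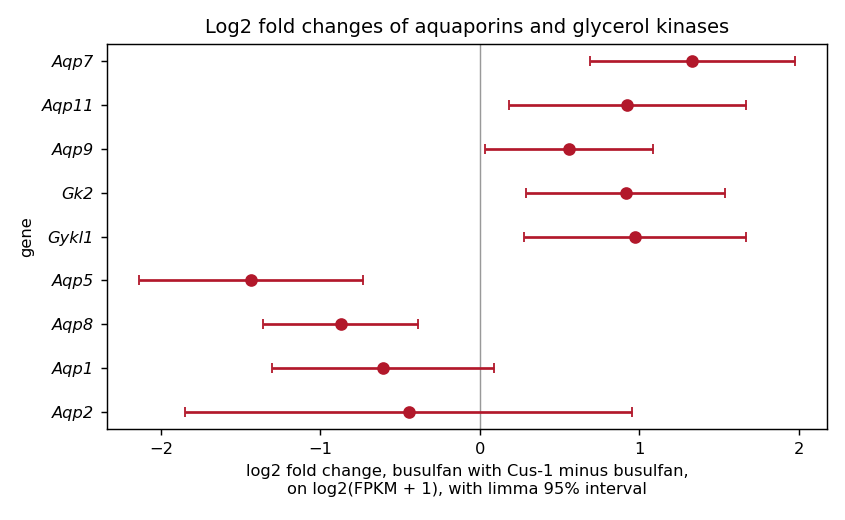
Points are limma log2 fold changes on log2(FPKM + 1), busulfan with Cus-1 minus busulfan, and bars are 95% intervals from 2 libraries a group. The intervals of Aqp7, Aqp11, Aqp9, Gk2 and Gykl1 lie above 0 and those of Aqp5 and Aqp8 below it before adjustment over all genes; centring on round spermatid genes turns Aqp11, Aqp9, Gk2 and Gykl1 below 0, and centring on Sertoli genes turns Aqp1 and Aqp2 above it.

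Stretches of DNA before gene starts are shown to set a spermatid channel, the most abundant kinase and a channel that was lower with Cus-1 side by side. They are RefSeq promoter sequences of build GRCm38, and 8 of the 9 genes had an entry. Each runs from 250 bases before the RefSeq start to the outermost start that RefSeq or GENCODE annotates, on the gene's own strand. For Aqp7 that is a RefSeq start at 41048237, outside the GENCODE start, so its stretch is the shortest. Aqp7 is chr4:41048238-41048386 on the minus strand, Gk2 chr5:97457024-97457273 on the minus strand, and Aqp8 chr7:123462044-123462290 on the plus strand. Capitals mark AACNGNC on either strand, a core of the site of MYB factors, to which the meiotic regulator MYBL1 belongs.
Aqp7: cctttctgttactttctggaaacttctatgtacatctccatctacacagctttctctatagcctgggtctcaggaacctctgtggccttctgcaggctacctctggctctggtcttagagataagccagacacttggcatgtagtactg
Gk2: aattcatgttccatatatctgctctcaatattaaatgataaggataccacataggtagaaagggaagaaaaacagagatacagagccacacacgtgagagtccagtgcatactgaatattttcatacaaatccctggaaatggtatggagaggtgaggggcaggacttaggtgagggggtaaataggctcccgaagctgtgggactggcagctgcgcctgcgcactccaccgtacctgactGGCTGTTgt
Aqp8: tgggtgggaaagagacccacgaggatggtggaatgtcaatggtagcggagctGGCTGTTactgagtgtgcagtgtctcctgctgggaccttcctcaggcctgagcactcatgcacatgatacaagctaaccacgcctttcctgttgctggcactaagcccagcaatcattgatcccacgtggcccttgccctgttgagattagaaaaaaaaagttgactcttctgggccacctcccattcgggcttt
The marked letters read GGCTGTT in Gk2 and in Aqp8, which differed in opposite directions, and Aqp7 has no match in the stretch shown. The 8 genes had 10 windows of 300 bases around a start. AACNGNC on either strand stood in 4 of them (Aqp8, Aqp11, Gk2 and window 2 of Aqp9) and in 32.8% of 32851 RefSeq promoters. The core of the cyclic AMP response element TGACG, the site of the spermatid factor CREM, stood in 1 (Aqp2), against 20.8% of all. The full element TGACGTCA, which contains that core, stood in 0 against 1.8%. A match is a string of letters and not a shown binding site.

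Of the other aquaporin genes listed, 4 had a row and none reached the filter. Mip, the lens channel, was at 0.06 to 0.17 FPKM, Aqp3 at 0.08 to 0.65, and Aqp12 at 0.13 to 0.41. Aqp4 was listed at 0 in 3 libraries and at 0.13 FPKM in Cus-1 1. Aqp6 was not analysed here. The summed FPKM of the 11 measured aquaporin genes was 215 and 264 under busulfan and 208 and 238 after Cus-1, so the groups overlapped in total aquaporin mRNA while its make-up differed. Aqp8 and Aqp5 together were at lower shares with Cus-1, Aqp8 at 36.3% and 26.2% with busulfan against 16.7% and 19.0%, and Aqp5 at 15% and 9.15% against 3.74% and 5.08%. The share of Aqp7 was 1.71% and 1.51% with busulfan and 6.48% and 3.85% with Cus-1.

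Germ-cell and somatic channels were then set against each other inside each library. The mean log2(FPKM + 1) of Aqp7 and Aqp11 minus that of the 5 somatic channels was -1.05 and -0.80 under busulfan and 1.25 and 0.28 after Cus-1. Somatic channels thus had the higher mean in both busulfan libraries, and germ-cell channels in both Cus-1 libraries. With Aqp9 left out of the somatic channels, a choice made after seeing its values, the differences were -1.07, -0.73, 1.62 and 0.51 in the same sequence. The signs with Cus-1 depend on the measure, since a mean of logs gives the low Aqp1 the weight of any other gene. By median log2(FPKM + 1), somatic channels were lower in Cus-1 1, at 4.96 against 5.10, and higher in Cus-1 2, at 5.21 against 4.56. Summed FPKM of the 5 somatic channels was above that of the 2 germ-cell channels in every library. The sums were 183, 218, 113 and 175 against 31.6, 45.6, 93.7 and 62.8 in the same sequence. These are descriptions without a test, since the split was made with results known.

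Glycerol channels were compared with the kinases in the same way, over 6 pairs of genes, by an exact two-sided permutation test that cannot go below 0.333 with 2 libraries a group. Gk2 exceeded Aqp7 by 26.5-fold and 35.9-fold in FPKM with busulfan and by 18.3-fold and 22.0-fold with Cus-1, so the kinase was far more abundant per length in every library. On the log2 scale the difference of Aqp7 minus Gk2 was -4.63 ± 0.32 under busulfan and -4.21 ± 0.15 after Cus-1 (SD, n = 2, exact permutation p = 0.333, 0.4 adjusted over the 6 pairs). For Aqp9 minus Gk2 it was -2.17 ± 0.08 and -2.53 ± 0.10, in the other direction (exact permutation p = 0.333, 0.4 adjusted). Aqp7 therefore stood nearer to the kinase with Cus-1 and Aqp9 farther from it, by amounts of 0.42 and 0.36 that this design cannot call. The former was 0.65 without busulfan 1 and 0.19 without busulfan 2.

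Between the glycerol channels, Aqp9 exceeded Aqp7 by 5.91-fold and 7.46-fold with busulfan and by 2.96-fold and 3.91-fold with Cus-1. The kinases kept nearly a fixed proportion: the ratio of Gk2 to Gykl1 was 2.02 and 2.02 under busulfan and 1.80 and 2.07 after Cus-1 (exact permutation p = 1). Of the 6 pairs, Aqp7 and Aqp5 diverged most. They have the highest and the lowest log2 fold change of the genes covered here, so this repeats their single-gene results. Aqp5 exceeded Aqp7 by 8.81-fold and 6.05-fold with busulfan, while with Cus-1 Aqp7 exceeded Aqp5 by 1.73-fold in Cus-1 1 and Aqp5 exceeded Aqp7 by 1.32-fold in Cus-1 2 (exact permutation p = 0.333, 0.4 adjusted).

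**Figure D3:**
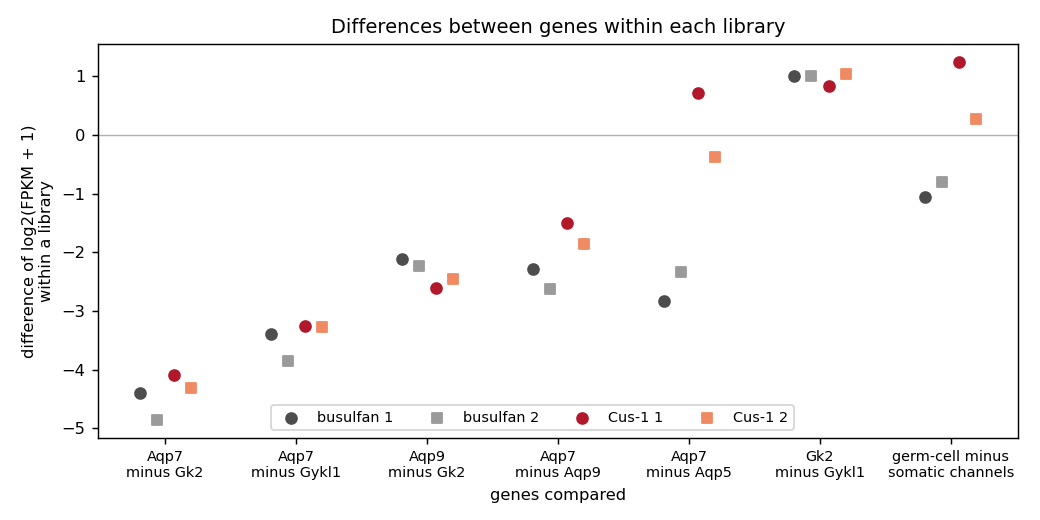
Points are differences of log2(FPKM + 1) between 2 genes, or between the means of 2 groups of channels, inside each library. Aqp7 minus Aqp5 and germ-cell minus somatic channels show the widest gaps between busulfan (grey) and Cus-1 (red, orange), and Gk2 minus Gykl1 stays near 1 in all 4 libraries.

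Cell type markers were measured beside these genes, because in whole tissue fewer cells of a type and less RNA per cell cannot be told apart. The median log2 fold change was 0.93 over 16 spermatocyte, 0.98 over 16 round spermatid and 1.22 over 16 elongating spermatid genes, and -0.75 over 16 Sertoli and -0.49 over 10 Leydig genes, against 0.04 over all tested genes. Aqp11, Gk2 and Gykl1 moved by nearly the amount of the spermatocyte and the round spermatid genes. Aqp11 minus the round spermatid median was 0.91 and 0.75 under busulfan and 0.70 and 0.79 after Cus-1, overlapping. For Gk2 that difference was 2.68 and 2.51 against 2.31 and 2.68, and for Gykl1 1.68 and 1.5 against 1.47 and 1.64. Once each library was centred on the round spermatid list, the log2 fold change was -0.09 for Aqp11, -0.10 for Gk2 and -0.04 for Gykl1. Against the spermatocyte median the group means differed by 0.07 for Aqp11, 0.06 for Gk2 and 0.12 for Gykl1. Against the elongating spermatid median they differed by -0.30, -0.31 and -0.25 in the same sequence. The groups overlapped in each case, so no single germ cell list is picked out.

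Aqp7 and Aqp9 were set beside the germ cell lists in the same way. Aqp7 minus the round spermatid median was -1.72 and -2.35 with busulfan and -1.79 and -1.63 with Cus-1, so the groups overlapped and the mean was higher by 0.32 with Cus-1. Aqp9 minus the same median was 0.56 and 0.28 with busulfan and -0.29 and 0.23 with Cus-1, apart by a narrow margin. It was lower by a mean of 0.45, which rests mostly on Cus-1 1. Against the spermatocyte and the elongating spermatid lists the groups overlapped for both genes. Aqp9 was thus above the busulfan level as deposited. Relative to round spermatid genes it was below that level, in Cus-1 2 only narrowly, and relative to Sertoli genes it was higher, by 1.21.

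Aqp5 lay below the Sertoli and the Leydig median in every library, and farther below them with Cus-1. Its difference from the Sertoli median was -2.13 and -2.19 with busulfan and -3.16 and -2.73 with Cus-1, and from the Leydig median -4.35 and -5.03 against -5.58 and -5.67. Neither overlapped, and the log2 fold change of Aqp5 after centring on the Sertoli list was -0.78 (limma adjusted p = 0.0729; over all alternatives its adjusted p ran from 0.0190 to 0.530). Its fold change also lay below the whole range of the 16 Sertoli genes (-0.97 to -0.39) and the 10 Leydig genes (-0.82 to -0.08). Of the other cell markers tested, only Cd74 of macrophages (-2.01) and the adipocyte genes Cfd (-2.37) and Fabp4 (-1.54) lay below Aqp5. For Aqp8 the difference from the Sertoli median was -0.89 and -0.71 with busulfan and -1.14 and -0.90 with Cus-1, apart by a narrow margin. On this scale Aqp1 minus the Sertoli median overlapped between the groups, at -5.76 and -5.82 with busulfan and -5.65 and -5.85 with Cus-1, a comparison that rests on the pseudocount because Aqp1 is so low. The part that the altered marker levels play in the aquaporin values was not tested.

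**Figure D4:**
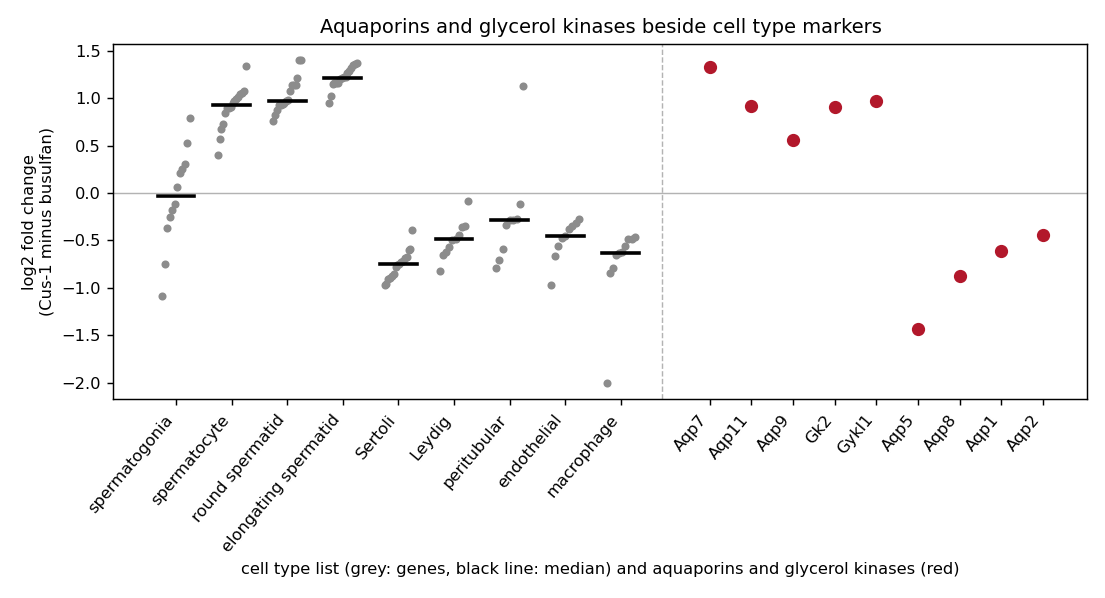
Grey points are log2 fold changes (Cus-1 minus busulfan) of marker genes, black lines their medians, and red points the 9 aquaporin and kinase genes. Aqp11, Gk2 and Gykl1 sit among the spermatocyte and round spermatid genes, and Aqp5 at -1.43 lies below all Sertoli and Leydig genes; centring on round spermatid genes puts Aqp11, Aqp9, Gk2 and Gykl1 below 0, and centring on Sertoli genes puts Aqp1 and Aqp2 above it.

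Likeness of pattern was measured as the Euclidean distance between log2(FPKM + 1) profiles over the 4 libraries after each gene's mean was taken out. Within the 9 genes, Aqp11 and Gykl1 were the closest pair (0.073), followed by Gk2 and Gykl1 (0.156) and Aqp11 and Gk2 (0.198). Of all tested genes, the 3 nearest to Gk2 were Gm18609, Hsf5, a heat shock factor of spermatocytes, and Dgkeos, at distances of 0.023 to 0.027. Those nearest to Aqp9 were Dnajc21, Lin9 and Gmps, the enzyme that makes GMP, at 0.020 to 0.031. Aqp7 was nearest to Ceacam2, Gm58905 and Gm48171 (0.046 to 0.079), all under 5 FPKM, with Gm48171 listed at 0 in both busulfan libraries. Aqp5 was nearest to Osr2, a zinc finger factor, at 0.038, which was at 84.5 and 64.5 FPKM under busulfan and 21.0 and 32.7 after Cus-1, and then to Zfp950 and Lyl1 (0.108 and 0.160). With 4 libraries many genes share such an order, so these names describe the profiles only.

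The other genes of glycerol and glycerolipid handling were split. Of 37 symbols listed, 32 had a row and all 32 were tested, of which 12 were higher and 2 lower at an unadjusted p under 0.05 (18.0% and 9.96% of all tested genes), and 0 passed the adjusted threshold. Their median log2 fold change was 0.30 against 0.04 over all genes, and 15 were higher and 12 lower without overlap, against 36.6% and 31.7% of all tested genes. Centring on the Sertoli or the round spermatid list moved the median of all genes by 0.65 or by -1.01, more than this list's own median, so the sign of that median rests on the scaling. Gk, the glycerol kinase of most tissues, was low and overlapped between the groups, at 1.31 and 1.83 FPKM under busulfan and 0.92 and 1.43 after Cus-1. Gk5, a relative of the kinases, was at 10.1 and 7.26 against 5.01 and 5.74 FPKM, so Gk2 and Gykl1 were each more abundant than Gk and Gk5 in all 4 libraries.

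The glycerol 3-phosphate acyltransferase genes Gpat2 and Gpat4, which start glycerolipid synthesis, were at higher levels as deposited. They were near the busulfan level once centred on round spermatid genes. Gpat4 was at 34.9 and 41.8 FPKM under busulfan and 90.8 and 58.8 after Cus-1 (limma log2 fold change 0.92 with SE 0.25, adjusted p = 0.152). Gpat2, known from meiotic germ cells, was at 8.74 and 15.4 against 28.6 and 21.0 FPKM (1.02, SE 0.31). The triglyceride synthases Dgat1 and Dgat2 differed by 0.76 (SE 0.16) and by 1.12 (SE 0.34) in log2. Mgll and Pnpla2, lipases whose action releases fatty acids from glycerides, were at 0.62 (SE 0.18) and 0.42 (SE 0.16). Tkfc, a kinase of dihydroxyacetone and glyceraldehyde, was at 44.4 and 59.3 against 94.7 and 89.8 FPKM, with both Cus-1 libraries well above both busulfan libraries. Centring on round spermatid genes shifts all of these by -1.01 in log2. That exceeds the log2 fold changes of Dgat1, Mgll, Pnpla2 and Tkfc (0.83).

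The genes lower at an unadjusted p under 0.05 were Gpd1 and Agpat4. Centring on Sertoli genes shifts both by 0.65 in log2, which brings them nearer to the busulfan level. Gpd1, the cytosolic enzyme that interconverts glycerol 3-phosphate and dihydroxyacetone phosphate, was at 55.3 and 53.8 FPKM under busulfan and 28.6 and 35.2 after Cus-1 (limma log2 fold change -0.76 with SE 0.17, adjusted p = 0.152). Its mitochondrial partner Gpd2 was at 26.5 and 26.1 FPKM with busulfan, 66.8 in Cus-1 1 and 26.9 in Cus-1 2 (0.67, SE 0.43), so its mean rests on Cus-1 1, the library with the high spermatid genes. Agpat4, an acyltransferase for lysophosphatidic acid, was at 66.4 and 50.9 against 25.8 and 35.2 FPKM, while Agpat1, which catalyses the same step, was at 56.9 and 72.5 against 120 and 88.1.

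**Figure D5:**
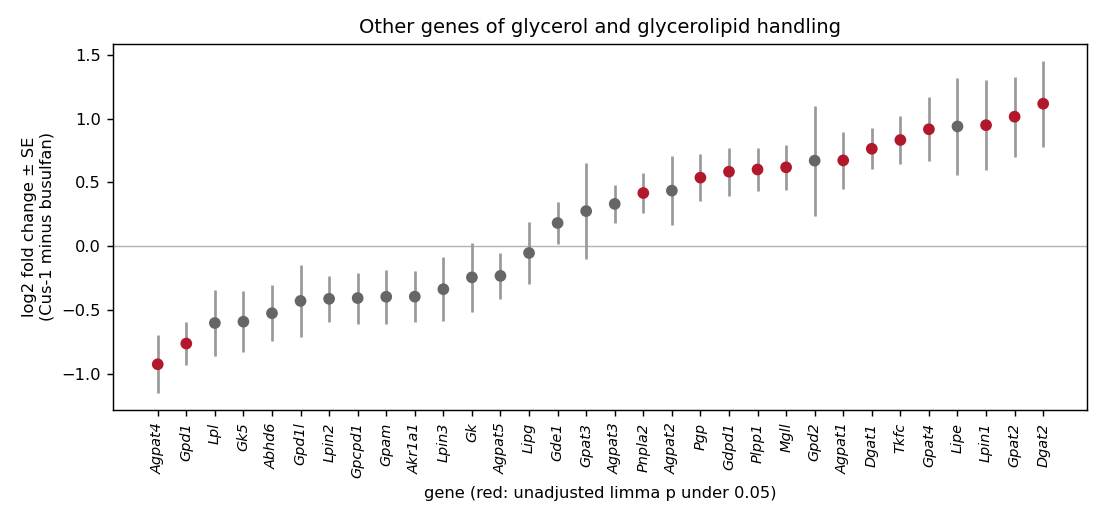
Points are log2 fold changes (Cus-1 minus busulfan) with SE for the 32 tested genes of glycerol and glycerolipid handling, ordered by value, with red for an unadjusted limma p under 0.05. The 12 red points on the right include Dgat2, Gpat2 and Gpat4, and the 2 on the left are Agpat4 and Gpd1; centring on round spermatid or Sertoli genes shifts all points together by about -1.01 or 0.65.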

How the data were processed

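Total RNA of mouse testis was measured in 4 libraries, 2 a group. The authors deposited 1 table of FPKM per gene and library, printed to 2 decimals, and the submitters' processing notes name build mm10. Which aligner, counter, annotation, strand setting and filters the authors used is not given in the sources used here. Each column was tied to samples by library name, and replicates were numbered in accession order and pair nothing. The table held 45536 rows with values, of which 910 carry no gene name (0.641% to 0.688% of summed FPKM) and were left out. For the 115 symbols on more than 1 row the row with the highest mean was used.

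Genes at 1 FPKM or more in 2 libraries were tested with limma 3.58.1 (R 4.3.3, mean-variance trend) on log2(FPKM + 1), Benjamini-Hochberg adjusted over 19837 genes; fold changes on this scale understate low genes. The fit was also run on simulated data with the same spread for every gene, set below the pooled spread here. That run does not show how the fit performs on these libraries. Positions are from GENCODE M21 of the same build, which matched 83.4% of tested symbols and all 9 genes. Depth was estimated from genes with 1 transcript, as the FPKM times length at which low values peak. Estimated fragments cover counting error only. Named genes were the 9, genes of the lists at an unadjusted p under 0.05 or among the 4 most abundant, untested aquaporins, and the 3 nearest profiles of Aqp7, Aqp9, Aqp5 and Gk2; others are named as cell markers, or after their values were seen (Gk, Gk5, Gpd2). The genes and lists were chosen with earlier results of these data known. A value of 1 gene of the ion transport list is not reported here.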

Additional observations from a re-analysis of the deposited data

How the results depend on the processing

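No paired analysis was possible because the labels give the groups no shared replicate numbers. Changing the pseudocount to 0.1, the low-value filter (none, or 5 FPKM, under which Aqp1 was not tested), the scaling to TPM, quantile normalization or limma without a trend turned the sign of 0 of the 9 log2 fold changes. Centring on the Sertoli list turned Aqp1 to 0.041 and Aqp2 to 0.20, left 1 gene lower at an unadjusted p under 0.05 and called 2 genes of all tested. Centring on the round spermatid list turned Aqp9 to -0.45, Aqp11 to -0.085, Gk2 to -0.10 and Gykl1 to -0.037, left 0 of the 9 higher and 4 lower at an unadjusted p under 0.05, and called 183 genes of all tested, Aqp5 among them at -2.44. With each library left out in turn, Aqp2 ran from -1.14 to 0.25 (0.01 without busulfan 2 and 0.25 without Cus-1 1), the count of the 9 higher at an unadjusted p under 0.05 ran from 1 to 5, and genes called of all tested from 0 to 7, the 7 without Cus-1 1. Over all genes, an unadjusted p under 0.05 was met by 3576 with higher and 1975 with lower levels. These counts were 1159 and 426 without busulfan 1, 1438 and 616 without Cus-1 1, 8777 and 68 centred on Sertoli genes and 32 and 6593 centred on round spermatid genes. The share of higher genes was 64.4%, and 51.2% under quantile normalization, where the median of all genes shifted by -0.10. Leaving Aqp9 out of the somatic channels, added after seeing the data, moved their difference from the germ-cell channels from 1.69 to 1.97. With 2 libraries a group the intervals are wide, and low genes such as Aqp1 are limited by depth.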

Other observations

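Genes of cell volume and ion transport, which set the osmotic gradients that water follows through aquaporins, differed in both directions between the groups, and centring on Sertoli genes shifts them by 0.65 and centring on round spermatid genes by -1.01. Of 20 tested, limma gave 2 higher and 6 lower without adjustment (p below 0.05), against 18.0% and 9.96% of all tested genes, 0 passed the adjusted threshold, and their median log2 fold change was -0.23 against 0.04 over all genes. Without overlap, 5 were higher and 11 lower, against 36.6% and 31.7%, and 4 overlapped. The potassium chloride cotransporter genes Slc12a4 and Slc12a7 differed by -0.66 (SE 0.20) and by -0.54 (SE 0.20) in log2, and Lrrc8c and Lrrc8d, subunits of the volume-regulated anion channel, -0.79 (SE 0.20) and -0.61 (SE 0.23). Both subunits were named for their unadjusted limma p under 0.05, and the other subunits of that channel were not all lower. Atp1a4, a sodium pump gene of sperm, was at 19.1 and 20.8 FPKM in busulfan 1 and 2 against 77.4 and 29.2 in Cus-1 1 and 2, highest in Cus-1 1 like the elongating spermatid genes.

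The profile of Aqp2, high in busulfan 2 and Cus-1 2 and low in busulfan 1 and Cus-1 1, was looked for in other genes after its values were seen. Ass1, the argininosuccinate synthase gene, was among the 3 nearest (distance 0.152), at 299.8 and 547 FPKM under busulfan and 208 and 506 after Cus-1. Of the 10 Leydig genes, 2 had the same order of libraries, both of steroid synthesis and picked out after their values were seen: Cyp17a1 was at 1351 and 2422 FPKM under busulfan and 1050 and 1888 after Cus-1, and Cyp11a1 at 661 and 1233 against 468 and 889. The other 8 did not share it in full, although 7 of the 10 were higher in the library numbered 2 of both groups. Neither pattern was counted over all tested genes, and the library numbers pair nothing, so these counts cannot be judged. The 8 with another order include Hsd3b1 at 778 and 863 against 618 and 675 FPKM, and Insl3 at 22948 and 20478 against 10265 and 14601 FPKM. Against the Leydig median, Aqp2 was at -3.76 and -3.12 with busulfan and -3.76 and -3.03 with Cus-1, still higher in the library numbered 2 of each group.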
